A study of Triticum aestivum with 39 samples.

Results

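The change from the unpollinated pistil to the young wheat grain was described by comparing 3 arrays of caryopsis at 3 to 5 days after pollination (DAP) with 3 arrays of pistil taken 2 days before anthesis. These 6 arrays belong to an atlas of 39 arrays of the Affymetrix Wheat GeneChip, with 3 biological replicates of each of 13 tissues of bread wheat cv. Chinese Spring. All plants were untreated and grew with 16 h of light at 22°C and 8 h of dark at 16°C, and both tissues came from the central florets of 10 spikes per collection. A pistil consists of the ovary with styles and stigmas and a caryopsis of the grain with its maternal coats, so that each value is an average over many cell types. In such samples, fewer cells of a type and less RNA per cell cannot be told apart. A level is log2(signal + 16), where signal is the deposited value of a probeset on an array, and a difference is caryopsis minus pistil on that scale.

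The pistil holds a single ovule inside the ovary wall. After double fertilization, the endosperm first passes through many rounds of nuclear division without cell walls and then forms cells, while the embryo is still small. In the young wheat grain most of the tissue is still the maternal pericarp, whose inner cell layer is green and carries out photosynthesis. Starch and storage proteins fill the endosperm only later.

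Of the 61115 probesets for wheat transcripts, 39564 were retained, after those that may cross-hybridize or whose orientation is ambiguous were left out. The GeneChip in general does not separate the homoeologous copies of a gene on the 3 wheat genomes, so a level is usually a sum over copies. A gene could be assigned to 713 of the retained probesets and a name other than a locus number to 110.

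The pistil and caryopsis arrays differed in control signals, from RNAs added to the sample and from wheat ribosomal RNA. RNAs with a polyA tail that are added to the sample before labelling (dap, lys, phe and thr) gave levels of 4.07 to 5.60 on the pistil arrays and of 7.42 to 12.14 on the caryopsis arrays. The level of the wheat's own 18S ribosomal RNA was 5.10, 6.15 and 5.52 on the pistil arrays and 7.26, 8.00 and 8.05 on the caryopsis arrays. In neither control did the 2 groups of arrays overlap, and the pistil levels of the added RNAs lay at or below 6.57, the background limit (the highest 95th percentile of 64 reporter probesets on the 6 arrays). Floral bracts and seedling root were the other tissues whose arrays gave little signal from the added RNAs.

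A further difference was found in wheat transcripts for which the GeneChip has probesets at the 3′ end, in the middle and at the 5′ end. For sucrose synthase, which cleaves sucrose, the 3′ probeset had nearly the same mean level in both tissues (13.22 ± 0.05 in pistil and 13.14 ± 0.12 in caryopsis, SD, n = 3). The middle probeset stood at 12.16 ± 0.09 and 11.06 ± 0.13, and the 5′ probeset at 9.59 ± 0.15 and 7.08 ± 0.15. The difference between tissues thus went from -0.07 at the 3′ end to -2.51 at the 5′ end of a single transcript.

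The 3′ level of sucrose synthase exceeded its 5′ level by 3.61, 3.79 and 3.49 on the pistil arrays and by 6.17, 5.78 and 6.26 on the caryopsis arrays. Over the whole atlas this excess was 3.07 to 3.79 on the 9 arrays of pistil, bracts and seedling root and 4.51 to 6.37 on the other 30 arrays, without overlap. For glucose-6-phosphate dehydrogenase (G-6-PDH), which feeds the pentose phosphate pathway, it was 0.80 to 1.67 on the 9 arrays and 1.77 to 3.28 on the other 30, again without overlap. In the caryopsis the 3′ probeset of G-6-PDH differed from the pistil by 1.09 and its 5′ probeset by -0.31, so that the sign depended on the position of the probeset.

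Other control transcripts varied in this respect. The excess of the 3′ over the 5′ level was 1.95 ± 0.13 in pistil and 2.57 ± 0.20 in caryopsis for the cytochrome P450 transcript CYP86-TA, and -0.95 ± 0.02 and -0.79 ± 0.01 for ubiquitin. For actin it was 1.55 ± 0.58 in pistil and -0.10 ± 0.44 in caryopsis, the opposite order. The position of the other probesets in their transcripts is not known here, and the part of this array property in each single difference below was not tested. Tissue and array property cannot be told apart in this comparison.

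**Figure D1:**
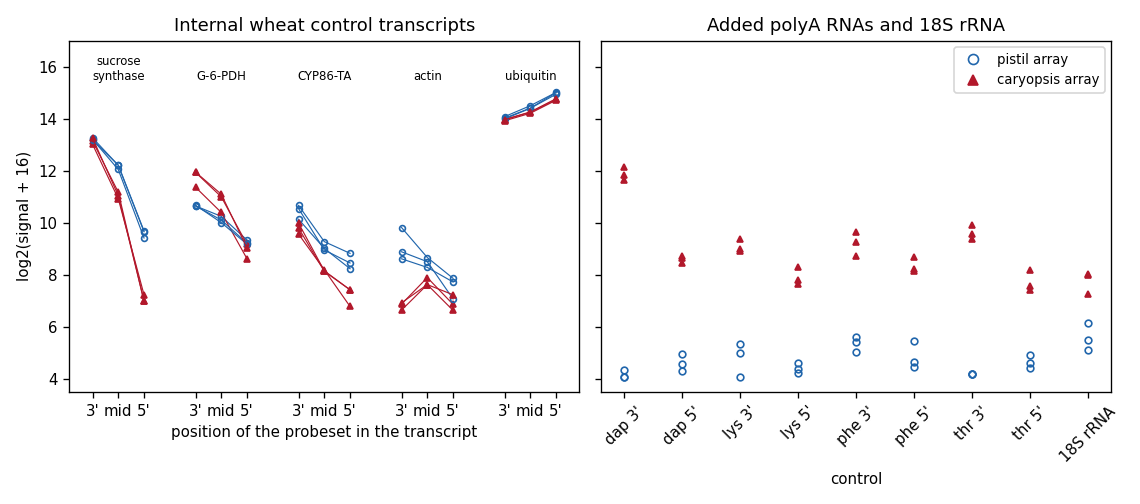
Levels, log2(signal + 16), of 5 internal wheat transcripts at their 3′, middle and 5′ probesets (left) and of the added polyA RNAs and 18S rRNA (right) on each of the 3 pistil (circles) and 3 caryopsis arrays (triangles); lines join the probesets of an array. The sucrose synthase lines start together at the 3′ end and differ by -2.51 on average at the 5′ end, and the added RNAs lie higher on every caryopsis array.

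In the fit of all 13 tissues with limma, 2725 retained probesets (6.89%) were higher in the caryopsis and 4604 (11.6%) lower, at an adjusted p (Benjamini-Hochberg) under 0.05 and a difference of at least 1. Higher and lower are used below only for probesets that passed this test. In total 18.5% of the probesets passed, and 37.2% of these were higher. This split depended on the scaling of the arrays: 47.2% of the calls were higher after quantile normalization, 48.3% when the arrays were scaled to the hybridization controls and 52.1% when their medians were made equal. The median difference of all retained probesets was -0.14, and these scalings raised it by 0.12, 0.15 and 0.21.

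The direction of the calls varied with their size. A difference of at least 4 was reached by 147 higher and 170 lower probesets, one of at least 6 by 30 and 43, and one of at least 8 by 5 and 17. The 3 arrays of one tissue did not overlap those of the other in 2662 of the higher and 4494 of the lower probesets, while over all retained probesets, with no test, 15.6% had all caryopsis arrays above and 25.5% all below. For 1125 of the higher probesets (41.3%) the pistil was at or below the background limit on all 3 arrays, and for 2303 of the lower (50.0%) the caryopsis was. The offset of 16 bears on how large these differences are.

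**Figure D2:**
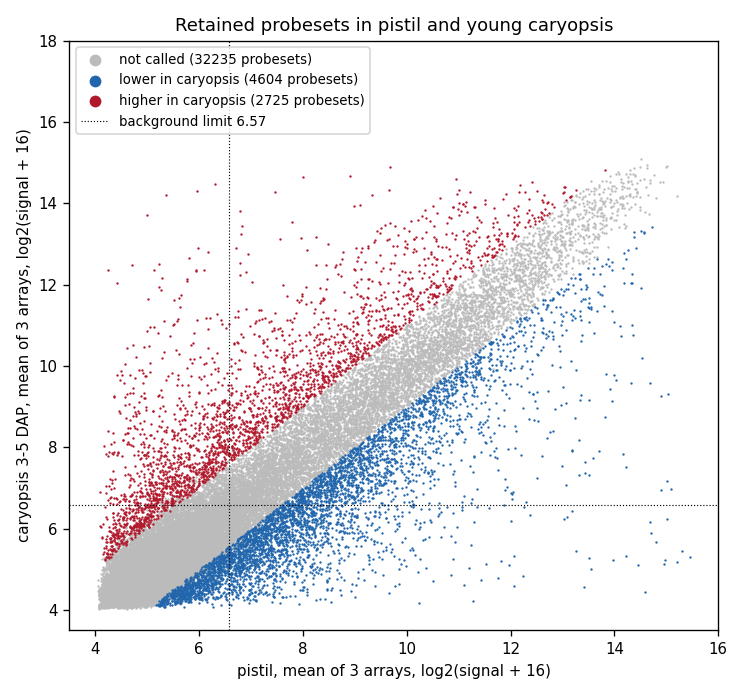
Mean level of each of the 39564 retained probesets in pistil (horizontal) and caryopsis (vertical), both as log2(signal + 16) over 3 arrays; red and blue points are the 2725 higher and 4604 lower probesets, grey points were not called, and dotted lines mark the background limit of 6.57. Many called probesets lie beyond a dotted line, where a tissue is at background.

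The probesets whose names begin with TaAffx carried most of the imbalance. Of 24160 such probesets, 1020 (4.22%) were higher and 2650 (11.0%) lower, whereas of the 15404 whose names begin with Ta the numbers were 1705 (11.1%) and 1954 (12.7%). Among the 110 probesets with a gene name 29 (26.4%) were higher and 9 (8.18%) lower, and their median difference was 0.22. These shares are set beside the counts of the gene lists below. They are not independent of the lists, which supply most of the probesets with a gene name. Over all retained probesets the shares were 6.89% higher and 11.6% lower.

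Nuclear genes of the chloroplast were among the named genes with the largest rise. PRK, phosphoribulokinase of the Calvin cycle, had levels of 8.06, 8.35 and 7.77 on the pistil arrays and of 11.69, 11.98 and 12.18 on the caryopsis arrays. All caryopsis arrays lay far above all pistil arrays, and the difference of 3.89 (SE 0.40, a 14.9-fold rise of signal + 16) had an adjusted p of 6.2e-09 in limma. The level of PRK in the caryopsis was exceeded in the seedling leaf (15.57 ± 0.21) and the floral bracts (14.25 ± 0.07).

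The thylakoid genes rose by similar amounts. petC encodes the Rieske iron-sulphur protein of the cytochrome b6f complex, and its probeset Ta.861.1.S1_at went from 10.26, 10.16 and 10.22 to 13.28, 13.68 and 13.80, a difference of 3.37 (SE 0.51, limma adjusted p = 4.73e-06). OEE2, a protein of the oxygen-evolving complex of photosystem II, went from 10.29, 10.30 and 10.53 to 13.44, 13.67 and 13.81, a difference of 3.26 (SE 0.55, limma adjusted p = 2.58e-05). In neither gene did the arrays of the tissues overlap. A second petC probeset, TaAffx.128418.105.S1_at, was at or below the background limit on all 6 arrays and was not called.

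Trx-M, an m-type thioredoxin of the plastid, had levels of 8.00, 7.82 and 8.15 in pistil and 11.50, 11.83 and 11.82 in caryopsis, with a difference of 3.73 (SE 0.52, limma adjusted p = 1.4e-06). CL9, a ribosomal protein of the chloroplast, went from 8.10, 7.60 and 7.88 to 10.97, 11.50 and 11.44, a difference of 3.44 (SE 0.33, limma adjusted p = 1.33e-09). The peroxiredoxin gene Prx1 rose in 2 of its 3 probesets, by 3.88 (SE 0.41) and 3.74 (SE 0.36), and the third probeset did not exceed the background limit on any array. In each of Trx-M, CL9 and the 2 called Prx1 probesets, the lowest caryopsis array was above the highest pistil array.

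PRK, petC, OEE2, Trx-M, CL9 and both called Prx1 probesets shared an order of tissues. In each, the caryopsis had rank 3 of the 13 tissues, after the seedling leaf with rank 1, and the pistil a rank of 6 to 12. The ranks of leaf and caryopsis were not particular to these genes. Pgk-1 and the lgul probeset Ta.28068.1.S1_at, described below, had the same ranks in both.

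The plastid gene rbcl, for the large subunit of Rubisco, is represented by 21 retained probesets that share a target. Of these 6 were higher, 1 lower and the median difference was 0.14, and 3 of the 6 did not exceed the background limit on any array. The highest level among those that rose was that of TaAffx.128414.181.S1_at, with 8.44, 8.47 and 8.53 in pistil and 9.63, 9.71 and 9.73 in caryopsis, a difference of 1.21 (SE 0.27, limma adjusted p = 0.000687). The probeset that fell, TaAffx.128414.196.S1_at, had 9.34, 9.04 and 10.02 in pistil and 8.40, 8.49 and 8.30 in caryopsis. Its difference was -1.07 (SE 0.36, limma adjusted p = 0.0259), and it was no longer called under any of the 3 other scalings, with an offset of 1 or 64, or without caryopsis replicate 1 or 3 or pistil replicate 3. The rbcl probesets thus disagreed in sign, and no direction is given for this gene.

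FBP, fructose-bisphosphatase, did not pass the test in either probeset. Its better measured probeset, Ta.439.1.S1_at, had means of 9.63 ± 0.17 and 10.36 ± 0.10. In all, 13 of the 32 probesets of the list of photosynthesis and chloroplast genes were higher and 1 lower, against 26.4% and 8.18% over all probesets with a gene name. The median difference was 0.58 against -0.14 over all retained probesets. Without rbcl, 7 of 11 were higher and none lower, by 3.26 to 3.89, and the median was 3.37. With an offset of 64 in place of 16, the count of higher probesets in this list was 8, as probesets near background no longer passed.

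Core histones are made when DNA is replicated. The list had 7 probesets of 4 genes, of which 6 were higher and none lower, with a median difference of 3.41. Among all probesets with a gene name 26.4% were higher. wcH2B-8, a histone H2B, was higher in all 3 probesets, by 3.79, 3.71 and 2.99, and the largest of these went from 9.66, 9.53 and 9.25 in pistil to 13.37, 13.39 and 13.04 in caryopsis (SE 0.49, limma adjusted p = 3.07e-07). The probesets of 1 gene share a transcript and are not separate evidence.

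H2A-9, a histone H2A, was higher in both probesets, by 3.47 (SE 0.38) and 3.41 (SE 0.37). wcH2B-6, another H2B, had the highest level of the list, with 11.37, 11.16 and 11.14 in pistil and 14.19, 14.37 and 14.26 in caryopsis, a difference of 3.05 (SE 0.27, limma adjusted p = 2.41e-10). For wcH2B-6 the caryopsis, at 14.27 ± 0.09, did not differ beyond the spread from the coleoptile of germinating seed, at 14.27 ± 0.19, and these were the highest of the 13 tissues. The exception was H2A-3, already at 13.05 ± 0.10 in pistil and at 13.37 ± 0.09 in caryopsis, whose difference of 0.32 (SE 0.38) did not pass.

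The floral bracts had the lowest level of all 13 tissues for each of the 6 histone probesets that rose, from 6.48 to 9.89, and the immature inflorescence the highest for 5 of them. The count of 6 higher histone probesets was the same under every alternative tried. The arrays of bracts, seedling root and pistil share the lack of signal from the added polyA RNAs. In seedling root these 6 probesets had mean levels of 12.57 to 13.65. The part of the array property in the histone levels was not tested.

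Of the tubulins, the subunits of microtubules, 1 of 4 probesets was higher. The share was 26.4% over all probesets with a gene name and 6.89% over all retained probesets. The beta-tubulin gene tubb1 went from 12.81, 12.62 and 12.50 to 14.20, 14.20 and 14.21, a difference of 1.56 (SE 0.14, limma adjusted p = 3.94e-10), and its groups of arrays did not overlap. The differences of Tubb5 (0.74, SE 0.18) and tubb2 (0.26, SE 0.14) were below 1, and the alpha-tubulin TUBA had levels of 9.38 to 10.89 in pistil and of 9.82 to 10.16 in caryopsis, which overlapped.

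**Figure D3:**
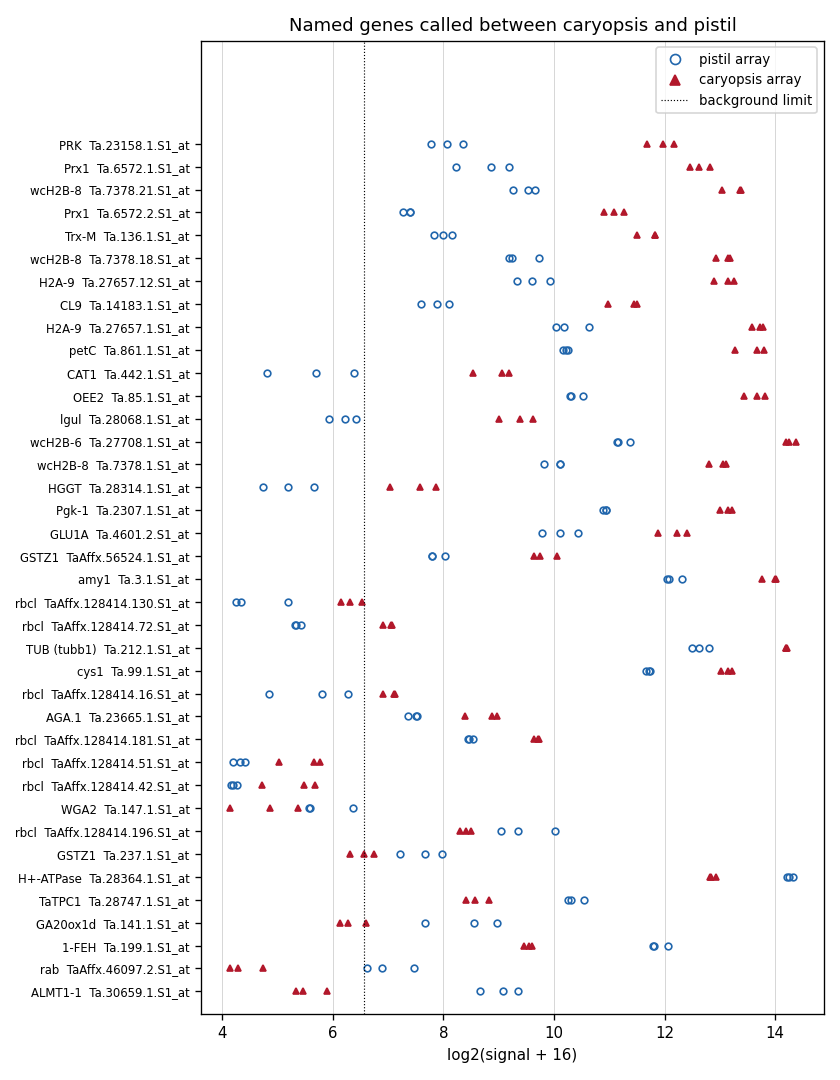
Levels, log2(signal + 16), of the 38 called probesets with a gene name on each of the 3 pistil arrays (circles) and 3 caryopsis arrays (triangles), ordered by difference, with the background limit dotted. The 29 higher probesets are at the top and the 9 lower at the bottom, and in none of them do the arrays of the tissues overlap.

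Among genes of sugars and starch, 2 of 8 probesets were higher and 1 lower, and the median difference was 0.66. The shares were 26.4% and 8.18% over all probesets with a gene name, and 6.89% and 11.6% over all retained probesets. Pgk-1, phosphoglycerate kinase, went from 10.88, 10.94 and 10.95 to 13.01, 13.15 and 13.22, a difference of 2.21 (SE 0.21, limma adjusted p = 7.42e-10). AGA.1, a subunit of ADP-glucose pyrophosphorylase, which makes the precursor of starch, went from 7.52, 7.36 and 7.51 to 8.39, 8.96 and 8.87, a difference of 1.28 (SE 0.30, limma adjusted p = 0.00133). AGP-S, the small subunit of that enzyme, stood at 11.98 ± 0.08 and 12.58 ± 0.05, and its difference of 0.60 (SE 0.14) was under the threshold although its arrays did not overlap.

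The gene of this list that fell was 1-FEH, a fructan exohydrolase, which releases fructose from stored fructans. Its levels were 12.06, 11.81 and 11.80 in pistil and 9.60, 9.54 and 9.45 in caryopsis, a difference of -2.36 (SE 0.15, limma adjusted p = 3.85e-13) with no overlap. The caryopsis was the lowest of the 13 tissues for 1-FEH, and the highest were the anthers, at 13.95 ± 0.15. The related 6-FEH was at 6.27 ± 0.15 in pistil and 7.17 ± 0.38 in caryopsis and did not pass.

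Of 4 hydrolase and cell wall probesets 2 were higher, against 26.4% of all probesets with a gene name. The amylase gene listed as amy1, with BMY1 as a synonym, had its highest levels of the atlas in these tissues, with 12.32, 12.05 and 12.09 in pistil and 13.77, 14.02 and 13.99 in caryopsis. The difference was 1.77 (SE 0.46, limma adjusted p = 0.00328), and the next tissue was the seedling leaf at 11.70 ± 0.80. GLU1A, a beta-glucosidase, rose from 10.43, 9.78 and 10.10 to 12.41, 12.23 and 11.88, a difference of 2.07 (SE 0.27, limma adjusted p = 3.3e-07). XTH, an enzyme that cuts and rejoins xyloglucan of the cell wall, stood at 12.31 ± 0.03 in pistil and 11.38 ± 0.12 in caryopsis, with a difference of -0.93 (SE 0.25) that was just under the threshold of 1 and passed after quantile normalization.

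Redox enzymes had 6 higher and 1 lower of 11 probesets, Prx1 and Trx-M included, against 26.4% and 8.18% of all probesets with a gene name. CAT1, a catalase, was at 4.80, 5.69 and 6.39 in pistil, within the background, and at 8.53, 9.06 and 9.19 in caryopsis, a difference of 3.30 (SE 0.40, limma adjusted p = 1.17e-07). A second CAT1 probeset, TaAffx.80209.1.S1_at, was at or below the background limit on all 6 arrays and was not called. lgul, a glyoxalase that removes methylglyoxal, was also within the background in pistil and went from 5.93, 6.21 and 6.41 to 9.00, 9.39 and 9.62 in Ta.28068.1.S1_at, a difference of 3.15 (SE 0.50, limma adjusted p = 8.21e-06). A second lgul probeset, Ta.8554.1.S1_at, had overlapping arrays and a difference of 0.44 (SE 0.35).

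The 2 probesets of GSTZ1, a zeta class glutathione S-transferase, disagreed. TaAffx.56524.1.S1_at was higher by 1.94 (SE 0.26) and Ta.237.1.S1_at was lower, with a difference of -1.08 (SE 0.26, limma adjusted p = 0.00181). The fall of Ta.237.1.S1_at was not called under the 3 other scalings or without caryopsis replicate 1 or pistil replicate 3. No direction is given for GSTZ1. HGGT, the enzyme that starts the synthesis of tocotrienols, the vitamin E forms of cereal grains, was at background in pistil (5.18, 5.65 and 4.73) and rose to 7.04, 7.58 and 7.87, a difference of 2.31 (SE 0.43, limma adjusted p = 8.31e-05). For HGGT the caryopsis was second to the 22 DAP endosperm, at 11.91.

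Of the 4 probesets of transport and metal binding 3 were lower and none higher, against 8.18% and 26.4% of all probesets with a gene name. ALMT1-1, a malate transporter of the plasma membrane, had levels of 8.66, 9.34 and 9.07 in pistil and of 5.45, 5.90 and 5.34 in caryopsis, where it was within the background. The difference of -3.46 (SE 0.49, limma adjusted p = 1.66e-06) was the largest fall of a named gene. Outside the comparison, ALMT1-1 reached 10.98 ± 0.56 in seedling root and 4.88 ± 0.58 in bracts, the 2 other tissues with little signal from the added RNAs.

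TaTPC1, a calcium channel, went from 10.25, 10.54 and 10.31 to 8.40, 8.83 and 8.57, a difference of -1.77 (SE 0.19, limma adjusted p = 9.91e-09). The proton pump gene H+-ATPase went from 14.26, 14.21 and 14.32 to 12.82, 12.84 and 12.93, a difference of -1.40 (SE 0.14, limma adjusted p = 2.84e-09). The groups of arrays were apart in both genes. At the 5′ probesets of the internal control transcripts the difference ran from -2.51 for sucrose synthase to -0.24 for ubiquitin. The position of the lower named probesets is not known, and the part of the array property in their falls was not tested. PCS1, phytochelatin synthase, which makes metal-binding peptides, had its highest level in pistil (10.23 ± 0.14) and the next in caryopsis (9.29 ± 0.19), with a difference of -0.94 (SE 0.23) that did not reach the threshold.

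GA20ox1d, a gibberellin 20-oxidase, which catalyses late steps in the synthesis of this growth hormone, was lower. Its levels were 7.67, 8.97 and 8.55 in pistil and 6.13, 6.60 and 6.27 in caryopsis, a difference of -2.06 (SE 0.34, limma adjusted p = 1.74e-05), and most caryopsis values were within the background. The 2 other 20-oxidase probesets did not pass: GA20ox1b had a difference of 0.98 (SE 0.42) and GA20OX1-A of -0.93 (SE 0.36). GA20ox1b passed as higher under the 3 other scalings, so that the calls in this family differed in direction there. GA20ox1b was within the background in pistil (mean 5.72) and near the limit of 6.57 in caryopsis (7.04, 6.42 and 6.64). GA20OX1-A was at or below that limit on all 6 arrays. No opposite change within the family is read from levels so close to background.

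Storage and maturation genes of the later grain were mostly at background in both tissues. None of the 6 probesets of gliadin and avenin-like genes, the 5 of serpins and the inhibitors CIII and xip, and the 3 listed as thionins was called in either direction. Of these, 2, 3 and 0 exceeded the background limit on some array. Those listed as thionins, with levels of 4.07 to 5.78 on the 6 arrays, lay under it, whereas THI1.2 reached 16.41 in the 22 DAP endosperm. The annotation gives Pur-B1 as a synonym of THI1.2 and names another of the 3 Pur-A1, with the synonym THI1.3. These 2 may thus be puroindolines. An avenin-like ALP probeset, Ta.27777.1.S1_at, stood at 12.73 ± 0.07 in pistil and 12.21 ± 0.33 in caryopsis, while the other ALP probesets lay near or below the limit, so that it did not follow the other probesets with this name.

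Of the 7 embryo maturation probesets 2 were lower, against 8.18% of all probesets with a gene name, and neither call was stable. The rab probeset TaAffx.46097.2.S1_at, of a gene responsive to abscisic acid, had 6.61, 6.89 and 7.47 in pistil and 4.13, 4.28 and 4.74 in caryopsis. Its difference of -2.61 (SE 0.98, limma adjusted p = 0.047) was not called when any 1 of the 6 arrays was left out, where the adjusted p was 0.0681 to 0.135. The SE draws on all 13 tissues, and the SD was 3.00 in germinating seed root against 0.44 in pistil and 0.32 in caryopsis. When only these 2 tissues were fitted, the call was kept. The second rab probeset had overlapping arrays. WGA2, the wheat germ lectin, was called lower (difference -1.05, SE 0.38, limma adjusted p = 0.0366) although all 6 of its levels were at or below the background limit. That call ended without caryopsis replicate 1 or 2 or pistil replicate 2.

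The list of anther genes held raftin1a and WZF1, and neither was called. raftin1a was at or below the background limit on all 6 arrays and reached 9.80 in anthers. WZF1, a zinc finger protein, was at 7.70 ± 0.55 in pistil and 7.39 ± 1.88 in caryopsis, with overlapping arrays, against 11.52 in anthers, 11.49 in bracts and 11.39 in seedling leaf, so that its level does not mark anthers in this atlas. No named gene marks the pistil, so its label was not checked in this way.

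The 4 translation initiation probesets (eIF-4E-1, eIF-2-beta, Eif4B and NCBP) had levels of 11.41 to 12.81 on the 6 arrays, and none passed. The lipid transfer protein gene LTP3 was high in both tissues, at 13.73 ± 0.03 and 14.08 ± 0.10. FKBP70, an immunophilin, stood at 12.95 ± 0.23 and 12.40 ± 0.23, with a difference of -0.55 (SE 0.17).

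**Figure D4:**
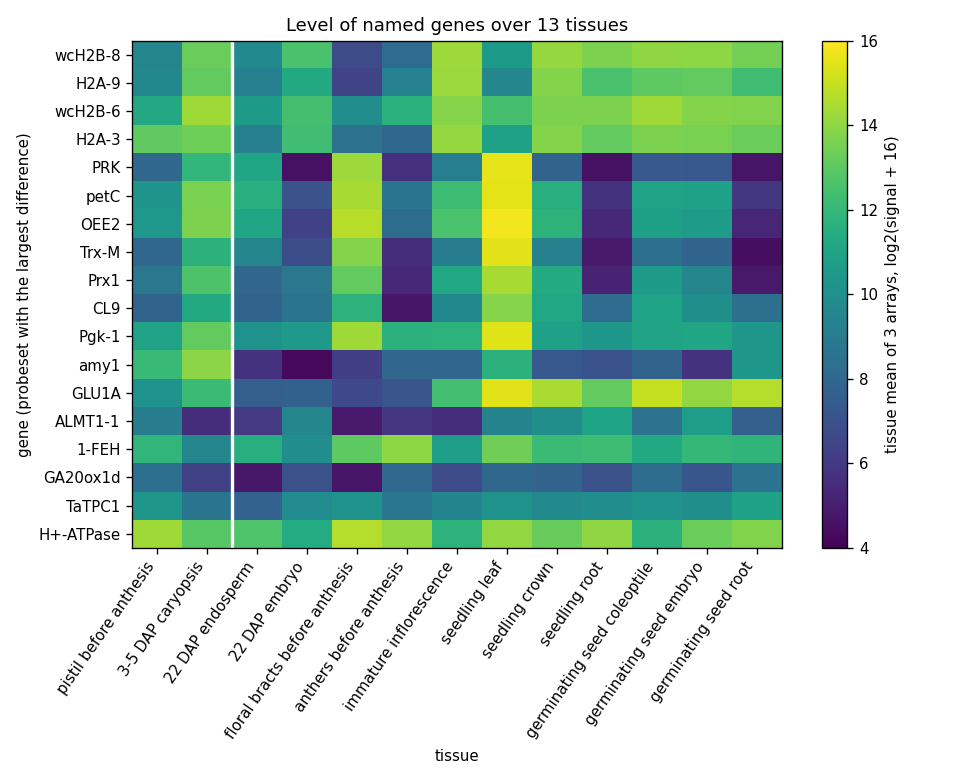
Mean level, log2(signal + 16) over 3 arrays, of 18 named genes (rows, by the probeset with the largest difference) in the 13 tissues (columns); pistil and caryopsis stand left of the white line. The chloroplast genes PRK to CL9 are brightest in the seedling leaf and brighter in caryopsis than in pistil, and the histones are brightest in the inflorescence or, for wcH2B-6, in coleoptile and caryopsis at 14.27.

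Probesets without an assigned gene showed the largest differences. Ta.10042.1.S1_at had levels of 4.73, 5.30 and 6.07 in pistil and of 13.92, 14.27 and 14.43 in caryopsis, a difference of 8.84 (SE 0.40, limma adjusted p = 1.63e-16). Ta.27774.2.S1_at rose by 8.71 (SE 0.41), Ta.10895.1.S1_at by 8.33 (SE 0.53) and Ta.24732.1.S1_at by 8.16 (SE 0.61), to caryopsis means of 13.70, 14.30 and 14.48. None of these 4 exceeded a mean of 7.93 in any other tissue, 22 DAP embryo and endosperm included.

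In the other direction, Ta.14426.1.S1_at was at 15.35, 15.65 and 15.35 in pistil and at 6.89, 4.87 and 4.15 in caryopsis, a difference of -10.14 (SE 0.58, limma adjusted p = 2.69e-14). TaAffx.37509.1.S1_at fell by 10.13 (SE 0.26), Ta.4796.1.S1_at by 10.02 (SE 0.32) and Ta.27705.1.S1_at by 9.86 (SE 0.53), from pistil means of 14.59, 15.21 and 15.31 to caryopsis means of 4.45, 5.18 and 5.45, within the background. The highest mean of these 4 in any tissue outside the comparison was 7.27, in the seedling crown, and bracts and seedling root, which share the array property of the pistil, also lay no higher than 6.85. The cell type in which these 8 probesets differ cannot be read from whole tissues.

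The levels of the called probesets in the 11 tissues outside the comparison differed by direction. The seedling leaf was the highest of these tissues for 22.5% of the higher probesets, against 13.8% of all retained probesets and 7.97% of the lower. For the immature inflorescence the shares were 15.6%, 9.18% and 8.60%, and for the coleoptile of germinating seed 8.26%, 4.44% and 1.80%, in the same order. The 22 DAP endosperm was highest for 14.3% of the higher probesets, below its share of 18.6% among all.

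The floral bracts were the highest of the 11 tissues for 1266 of the lower probesets (27.5%), against 9.64% of all retained and 7.01% of the higher. Anthers followed with 21.6% of the lower probesets, close to their share of 20.0% among all, and seedling root had 9.90% against 8.25%. Bracts and seedling root were compared with the 9 remaining tissues on the arrays outside the comparison. The lower probesets exceeded the mean of the 9 by a median of 0.27, all retained probesets by -0.02 and the higher probesets by -0.09, and 23.1%, 8.20% and 15.6% of them exceeded it by at least 1. Bracts and seedling root share the low signal of the added polyA RNAs with the pistil, but differed here. The median level of the lower probesets was 7.64 in bracts, against 5.99 over all retained probesets. In seedling root it was 6.84 against 5.98, and in seedling crown, among the 9 remaining tissues, 6.85 against 5.96. The pooled excess over the 9 tissues had a median of 0.36 for the lower probesets of the TaAffx type and 0.14 for those of the Ta type. Bracts also come from the same florets as the pistil, and how far either property accounts for these shares was not tested.

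**Figure D5:**
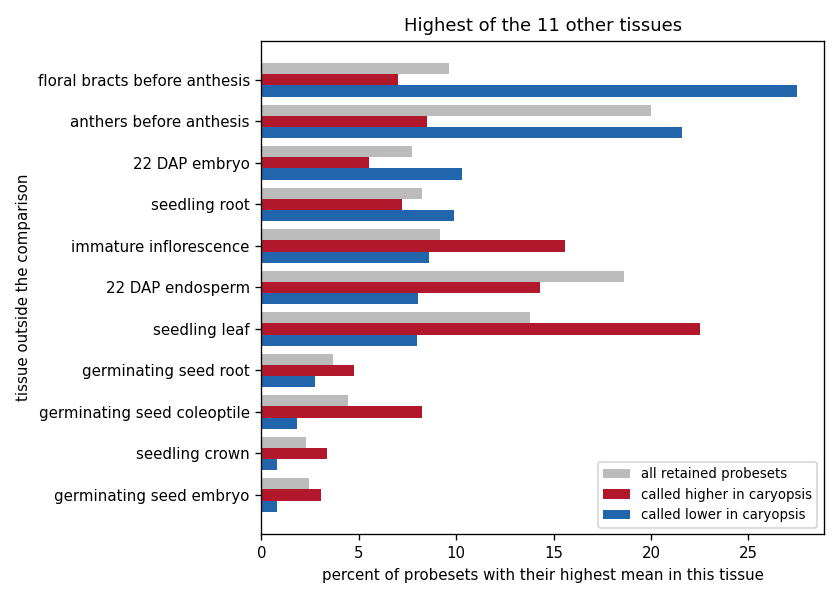
Share, in percent, of all retained (grey), higher (red) and lower (blue) probesets whose highest mean among the 11 tissues outside the comparison is in the tissue named on the vertical axis. The leaf bar is longest for higher probesets (22.5%) and the bract bar for lower probesets (27.5%).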

How the data were processed

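The values are the signal intensity of each probeset, deposited by the authors on a linear scale and made with MAS5 per the labels, with a 2% trimmed mean near 500 on each array. The RMA values of the study were not used here. An offset of 16 was added before conversion to log2. The 13 tissue means were fitted in limma 3.58.1 (R 4.3.3) over all 39 arrays, and p-values of the contrast were adjusted over all 39564 retained probesets. The median signal was 48.6 to 50.1 on the pistil arrays and 39.2 to 42.2 on the caryopsis arrays, replicates correlated at 0.955 to 0.968 across probesets, and precision is limited by 3 arrays per tissue. Alternatives covered scaling, offset, filters, spread estimate, samples fitted, thresholds, a replicate block and each array left out.

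Members and lists were chosen with earlier results of these data known, and the 16 lists were matched by name after the reference tables were seen. Among called probesets without overlap, up to 12 genes with a name were taken per direction by size of the difference (9 probesets fell), then 4 without a gene per direction, and list members. Probesets with only a locus number were not named, as the tables give no description. Gene names came from the platform annotation, updated through a table of the IWGSC CS RefSeq v2.1 assembly (712 of 713 matched). Reporter and control probesets, those with the suffixes _s_at, _x_at and _a_at, and those with .A1 in their names were left out of the test. The study's set of 5′ sequences cannot be read from the probeset names, so its members were not left out. The paper kept them out of its comparison because it judged their signal less reliable on average, and the retained probesets may hold many of them. In simulated data with 50 probesets changed by each amount, 34 changes of 1.5 and 49 of 3 were called as higher, and 29 and 50 changes of those sizes as lower. No other probesets were changed there, a far smaller share than the 18.5% called in the real data. As the adjusted p depends on this share, these rates do not give the recovery in the real comparison.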

Additional observations from a re-analysis of the deposited data

Results flagged for a closer look

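Signals were found outside the tested probesets. Of the 10643 probesets with .A1 in their names, whose orientation is ambiguous, 4729 (44.4%) were above the background limit on all 6 arrays, against 27.3% of the retained probesets. In a fit of all probesets 10.2% of them were higher and 15.6% lower, against 7.01% and 11.9% of the retained probesets and 13.3% and 15.6% of the others with an _s_at, _x_at or _a_at suffix. The internal control transcripts also carried a signal that the test did not use. From pistil to caryopsis, the excess of the 3′ over the 5′ probeset grew by 2.44 for sucrose synthase and by 1.40 for G-6-PDH, and no array of one tissue overlapped the other.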

How the results depend on the processing

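The count of higher probesets was 971 with a difference of at least 2 and 5305 with all 61115 probesets, and that of lower probesets was 1296 and 8080. An offset of 64 gave 2835 lower probesets. Only Ta probesets, a split chosen after seeing the data, gave 1705 and 1954, and only TaAffx probesets 1020 and 2650. The share of calls that were higher became 48.3% with scaling to hybridization controls and 52.1% with equal medians. It was 46.6% in Ta and 27.8% in TaAffx probesets. Leaving out each replicate gave 2569 to 2707 higher and 4130 to 4410 lower probesets, and 36.8% to 38.9% higher among the calls. With the replicate number as a block, 2727 were higher and 4599 lower. The deviations of same-numbered samples correlated at -0.01 to -0.001 and those of differently numbered samples at -0.006 to 0.01. No pairing by number was seen, though these values cannot show whether samples shared plants or a day of processing. Under the block rab was no longer called (adjusted p = 0.0574 in limma).

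Of 61 differences of single probesets, 49 kept their sign and their side of the threshold in each alternative run that was counted. The threshold of a difference of at least 2 was not counted here, and called differences smaller than that do not pass it. The others were weaker or stronger in 55 values: rab in 13, WGA2 and the rbcl probeset that fell in 9 each, and the rest in 6 or fewer. Differences near 1 or near background depend most on offset and scaling, and no alternative removes the array property shared by the pistil arrays.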
